A study of Mus musculus with 26 samples.

Results

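Transcripts of Nr1h4, which encodes the bile acid receptor FXR, and of Nr0b2, which encodes its target SHP, were followed through 26 RNA-seq libraries of mouse liver. These 2 genes were taken by identifier from a table of 47643 genes, as Nr1h4 (ENSMUSG00000047638.15) and Nr0b2 (ENSMUSG00000037583.2). FXR is a nuclear receptor that is activated by bile acids and binds DNA mostly as a heterodimer with RXR. Among the genes it switches on in hepatocytes is Shp, an unusual nuclear receptor that has no DNA-binding domain and represses other factors, LRH-1 (Nr5a2) and HNF4A among them. Through SHP, and through the gut hormone FGF15 acting on its liver receptor, bile acids lower the synthesis of more bile acids by the enzymes CYP7A1 and CYP8B1.

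The libraries form 10 groups in 5 experiments, each with its own control, and mice were C57BL/6J unless said otherwise. In the TCPOBOP experiment, wild-type mice of 8 weeks, fed ad libitum, received corn oil (2 libraries) or TCPOBOP, an agonist of the nuclear receptor CAR (2 libraries). Their titles give 36 hours after injection while their source names give 6 hours. In the knockout experiment, Fxr-/- Shp-/- mice (3 libraries) were compared with wild-type mice (3 libraries), all 12 weeks old and fed ad libitum. The labels do not say which part of either gene is missing. In the hepatectomy experiment, C3H/HeN mice of 8 to 10 weeks, fed ad libitum and without a stated genotype, were taken at 48 hours after partial hepatectomy (PHx, 3 libraries) or at 0 hours after sham surgery (3 libraries). In the high fat experiment, hepatocytes were isolated from wild-type mice of 16 weeks after a fast of 10 hours, on chow (2 libraries) or a diet with 60% fat (2 libraries). In the cholic acid experiment, mice of 10 to 12 weeks with floxed alleles of both genes (fl/fl Fxr fl/fl Shp) received chow (3 libraries) or a diet with cholic acid, a primary bile acid (3 libraries), and were fasted for 8 to 10 hours. Both diet groups carry the floxed alleles, and the labels name no Cre. RNA came from whole liver except in the high fat experiment.

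Between 13949059 and 70367874 reads per library were counted to genes. No pair of replicates agreed within counting error, so none was merged. Nothing in the labels says that replicates were separate animals, so p-values measure the spread between these samples, which may be technical in part. Hepatocyte markers were present in every group, with a summed level of 48210 to 134000 CPM (read counts scaled to library size) over 6 genes. The library labelled corn oil 1 went against its label. It had 3706 CPM of Cyp2b10, the standard target gene of CAR, while corn oil 2 had 9.94 CPM and TCPOBOP 1 and 2 had 3430 and 2988 CPM. The chow library 3 of the floxed mice also stood apart: without it, 1345 genes were called in the cholic acid comparison in place of 600.

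Both genes were counted free of overlap with other annotated genes. In GENCODE M21, on GRCm38, Nr1h4 covers chr10:89454234-89533585 on the minus strand, with 3 transcripts of 9 to 10 exons and 2303 exonic bases in all. Its nearest neighbour is Gas2l3, 10267 bases away. Nr0b2 is a compact gene at chr4:133553376-133556536 on the plus strand, with 1 transcript of 2 exons and 1132 exonic bases. Its nearest neighbour is the small gene Gm23158, 2288 bases away.

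The 250 bases upstream of a RefSeq start of each gene are shown because the pair moved in opposite directions under some conditions. They come from RefSeq on GRCm38.p6, read 5′ to 3′ on the gene's strand, with matches to TCAAGG (the core of the site bound by LRH-1) or AGGTCA (the half-site of many nuclear receptors), searched on both strands, in capitals. The Nr1h4 window is chr10:89506659-89506908 on the minus strand, upstream of a start that lies inside the GENCODE gene. The Nr0b2 window is chr4:133553126-133553375 on the plus strand.
Nr1h4: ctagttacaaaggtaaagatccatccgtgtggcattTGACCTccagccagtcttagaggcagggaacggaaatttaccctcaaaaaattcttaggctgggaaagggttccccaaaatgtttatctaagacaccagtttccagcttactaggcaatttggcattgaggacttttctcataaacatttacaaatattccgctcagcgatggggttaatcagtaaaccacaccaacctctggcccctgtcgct
Nr0b2: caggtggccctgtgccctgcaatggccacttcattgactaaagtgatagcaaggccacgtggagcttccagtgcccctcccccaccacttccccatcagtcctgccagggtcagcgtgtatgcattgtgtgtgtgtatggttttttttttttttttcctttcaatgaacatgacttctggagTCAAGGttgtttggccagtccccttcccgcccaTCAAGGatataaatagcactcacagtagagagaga

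The Nr0b2 window held TCAAGG at 2 places, at bases 68 to 63 and 35 to 30 before the start, and no AGGTCA. The Nr1h4 window held 1 AGGTCA, on the opposite strand (TGACCT) at bases 214 to 209, and no TCAAGG. Of 32817 promoter windows of this length, 12.5% held TCAAGG and 14.03% held AGGTCA. The perfect inverted repeat AGGTCANTGACCT, a form that FXR and RXR can bind, was in neither window and in 2 of all windows. The matches do not overlap one another. These are letter matches only, and binding was not measured.

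Nr1h4 varied less across the groups than Nr0b2. Levels are given as CPM scaled by TMM over all libraries, as mean ± SD. Across the control groups, Nr1h4 means spanned 1.84-fold and Nr0b2 means 9.67-fold. Across every library outside the knockout, Nr1h4 ran from 56.1 to 167.5 CPM and Nr0b2 from 4.03 to 91.2 CPM.

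The isolated hepatocytes had the highest Nr1h4 levels, at 162.6 ± 6.93 CPM on the high fat diet and 159.6 ± 2.26 CPM on chow (SD, n = 2 each), and their ranges overlapped. Wild-type liver followed without overlap at 136.5 ± 20.8 CPM (n = 3), floxed mice on chow at 135.5 ± 12.9 CPM (n = 3), sham liver at 112.1 ± 28.2 CPM (n = 3) and TCPOBOP at 110.8 ± 8.56 CPM (n = 2), each overlapping the next. Corn oil came next at 86.8 ± 2.44 CPM (n = 2), and overlapped neither neighbour in the order. The low end held PHx liver at 77.5 ± 2.38 CPM, cholic acid-fed mice at 67.9 ± 13.6 CPM and the knockout at 56.2 ± 4.42 CPM (n = 3 each), again with overlap between neighbours.

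For Nr0b2 the order was another. Cholic acid-fed mice had the highest mean, 65.3 ± 24.1 CPM (n = 3), and overlapped the hepatocytes on chow at 57.0 ± 18.6 CPM and on high fat diet at 42.5 ± 11.5 CPM (n = 2 each). Corn oil, with 35.2 ± 0.177 CPM, overlapped the high fat range and lay above TCPOBOP with 33.2 ± 1.80 CPM (n = 2 each) without overlap. PHx liver had 23.5 ± 9.38 CPM, wild type 17.98 ± 7.38 CPM and floxed mice on chow 16.7 ± 1.97 CPM (n = 3 each), and neighbours overlapped. Sham liver was the lowest intact group, at 5.89 ± 2.53 CPM, and the knockout had 1.08 ± 0.517 CPM (n = 3 each), with no overlap between the last 3 groups. Experiments differed in strain, age, feeding and tissue, so the order across them was not tested, and these factors cannot be told apart from the experiment.

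**Figure D1:**
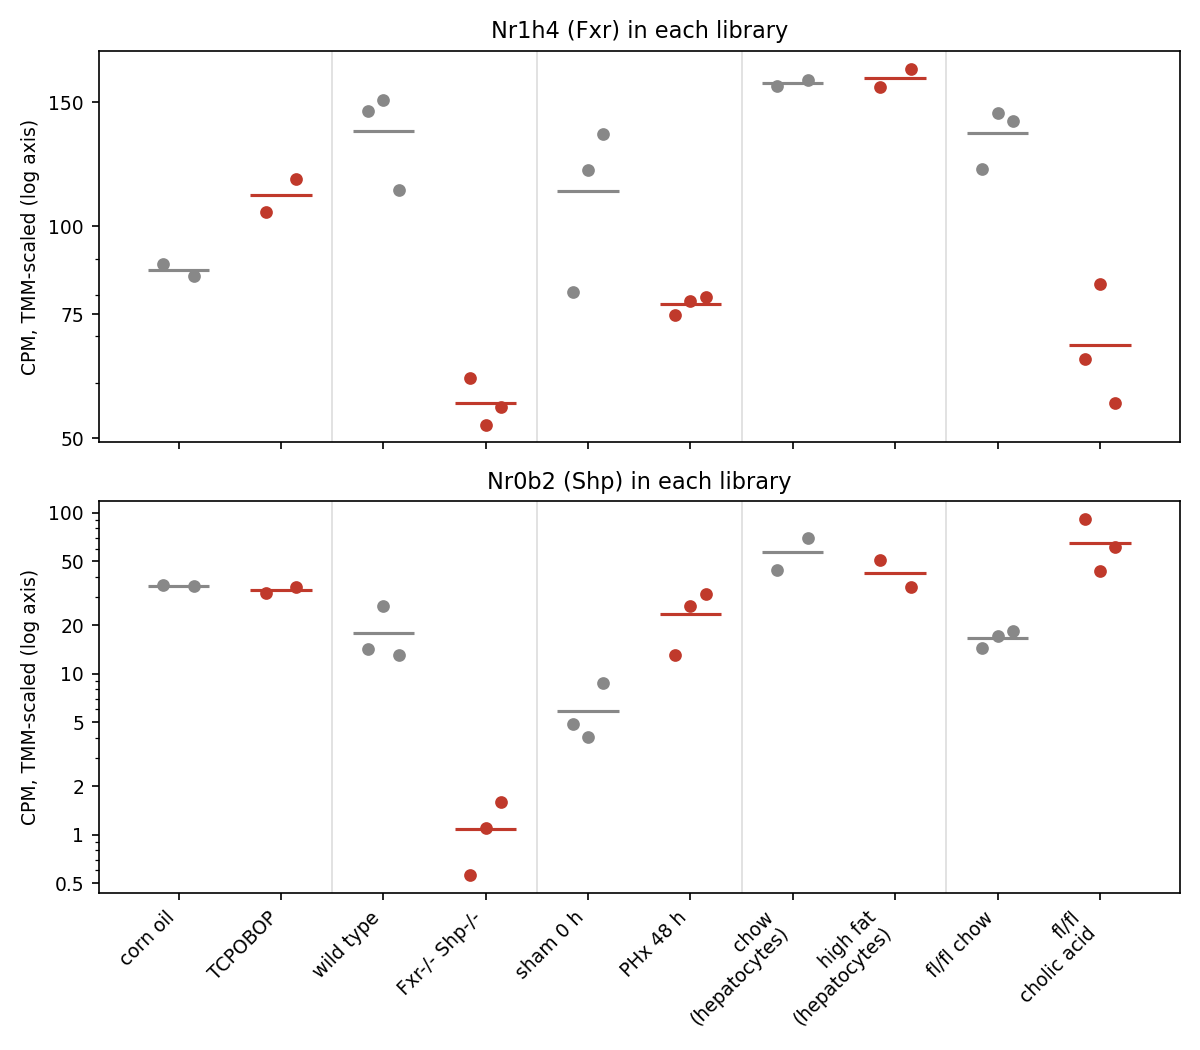
Level of Nr1h4 (top) and Nr0b2 (bottom) in each library, in TMM-scaled CPM on a log axis. Each point is a library, horizontal lines are group means, grey marks the control and red the treated group of each experiment. Nr0b2 spans 4.03 to 91.2 CPM outside the knockout, Nr1h4 only 56.1 to 167.5 CPM.

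The knockout libraries still held many Nr1h4 reads and few Nr0b2 reads. Nr1h4 had 145.7, 151.1 and 112.7 CPM in the wild-type libraries, and the knockout libraries had 61.0, 52.3 and 55.3 CPM. Relative to the wild-type mean, the residual was 44.7%, 38.3% and 40.5%. All knockout libraries lay below all wild-type libraries, and the residual Nr1h4 range, 52.3 to 61.0 CPM, overlapped the 56.1 to 82.8 CPM of cholic acid-fed floxed mice.

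Nr0b2 had 14.3, 26.5 and 13.1 CPM in wild type, and the knockout libraries had 0.558, 1.09 and 1.59 CPM. These knockout values rested on 13 reads (95% exact Poisson interval 6.92 to 22.2), 25 reads (16.2 to 36.9) and 39 reads (27.7 to 53.3). They amounted to 3.11%, 6.08% and 8.85% of the wild-type mean and were above the limit that a count of 0 would allow, 3 counts or 0.133 to 0.153 CPM. The intervals of knockout libraries 1 and 3 did not overlap, so they differed by more than counting error. Intervals cover counting error only.

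Both transcripts fell in the knockout, Nr1h4 with a log2 fold change of -1.27 ± 0.13 (SE) and Nr0b2 with -4.03 ± 0.39, at edgeR quasi-likelihood adjusted p-values (Benjamini-Hochberg over all genes tested) of 0.000149 and 0.000107. Both genes are themselves knocked out in these mice, so these tests concern the genotype itself and not a response of an intact gene. This comparison called many genes, 40.4% of 13473. Reads were counted over whole genes, so residual reads do not tell which exons they came from. Only 1.47% of genes moved by more than Nr0b2, against 11.3% for Nr1h4.

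Marker RNA of several cell types also differed in the knockout libraries, in a comparison where 21% of all genes were raised and 19.4% lowered. The summed hepatocyte markers ranged from 65750 to 90040 CPM in the knockout and from 96120 to 121800 CPM in wild type, with 3 of 6 markers lowered. Cholangiocyte markers summed to 54.4 to 126.7 CPM against 26.2 to 35.7 CPM (4 of 5 raised). Leukocyte markers summed to 20.5 to 53.5 CPM against 5.05 to 8.89 CPM (2 of 3 tested raised), and stellate markers to 328.0 to 411.1 CPM against 169.4 to 273.6 CPM (3 of 5 raised). Of 6 Kupffer markers 2 were raised and 1 lowered, with overlapping sums of 203.8 to 439.9 CPM against 137.7 to 306.5 CPM, and 2 of 5 endothelial markers were raised, with sums of 105.5 to 154.1 CPM against 58.1 to 108.5 CPM. No marker of these lists was at 0 throughout either group. Their part in the fall of the members was not tested, and in whole liver fewer cells of a type and less RNA per cell cannot be told apart.

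The wider FXR and SHP pathway was read from a list of 46 genes, of which 43 were tested in the knockout. There 4 rose and 19 fell, where 21% and 19.4% of all genes did so, and the list's median log2 fold change was -0.27 against -0.01 for all genes. Among the genes that FXR induces, 2 of 13 tested rose and 6 fell. Abcb11, the bile salt export pump, went from 392.7 ± 41.8 to 82.6 ± 24.6 CPM (n = 3 each; log2 fold change -2.23 ± 0.22, edgeR adjusted p 0.000103). Slc51b, a subunit of the basolateral bile acid exporter, had 2, 2 and 5 reads in wild type and 0 in each knockout library, too few to test. Its partner subunit Slc51a had 0 reads in all 26 libraries, and whether this reflects expression or counting was not tested. Slc51a shares 17.7% of its exonic bases with Pcyt1a, and Slc51b shares 12.8% with Rasl12.

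Of the 4 synthesis genes, Cyp7a1, the rate-limiting enzyme of the classical pathway, rose by 1.02 ± 0.17 (edgeR adjusted p 0.00204), from 290.9 ± 60.8 to 581.5 ± 91.1 CPM (n = 3), a call lost in a single fit of all 26 libraries (0.277). Cyp7b1, an oxysterol hydroxylase of the alternative pathway, fell from 249.8 ± 40.9 to 18.8 ± 2.61 CPM (log2 fold change -3.72 ± 0.16, edgeR adjusted p 1.53e-06). The uptake carriers parted. Slco1a1 dropped from 4529, 5126 and 4381 reads to 10, 1 and 1, while Slco1a4 rose with a log2 fold change of 1.22 ± 0.12 (edgeR adjusted p 0.000104).

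Both factors that SHP is known to repress fell in transcript level, with log2 fold changes of -0.78 for Hnf4a and -0.49 for Nr5a2 (edgeR adjusted p 0.00185 and 0.00579). Nr1i3 (CAR) fell by 1.04 (edgeR adjusted p 0.00037). It shares 74.9% of its exonic bases with Tomm40l, so its reads are uncertain as a single gene. Pltp, a phospholipid transfer protein, rose by 1.03 (edgeR adjusted p 0.00702), with 19.3% of its exonic bases shared with Ctsa, and was not called in the fit of all 26 libraries (0.0572). Apoc2 was called lower (-1.40, edgeR adjusted p 0.0262), at 0.794 ± 0.168 CPM in wild type and with 79.5% of its exonic bases inside another gene; its call was lost when any of 4 libraries was left out (lowest p 0.0618) and under the replicate block.

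Neither related receptor was called higher, and only Nr1h5 had reads to test. Nr0b1 (DAX-1), the closest relative of Shp, had 0 reads in all 26 libraries. Nr1h5, the FXR-beta gene, was at 1.87 ± 0.994 CPM in wild-type and 1.67 ± 0.493 CPM in knockout libraries, which overlapped (log2 fold change -0.17 ± 0.43, edgeR adjusted p 0.785). Rxra, the dimer partner of FXR, was at 482.4 ± 17.1 and 440.1 ± 35.9 CPM (-0.12 ± 0.10, edgeR adjusted p 0.361).

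Cholic acid feeding moved the members in opposite directions. Nr1h4 had 120.8, 144.7 and 141.1 CPM on chow and 64.8, 82.8 and 56.1 CPM on cholic acid. The fed mean was 50.1% of the chow mean, and the groups did not overlap. Nr0b2 had 14.5, 17.1 and 18.4 CPM on chow and 91.2, 43.6 and 61.1 CPM on cholic acid, a 3.92-fold higher mean, again without overlap. The fed library with the lowest Nr0b2 was the one with the highest Nr1h4, but that with the highest Nr0b2 did not have the lowest Nr1h4.

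Nr1h4 fell with a log2 fold change of -1.01 ± 0.19 (SE; edgeR adjusted p 0.0219), and Nr0b2 rose by 1.96 ± 0.27 (edgeR adjusted p 0.00982), in a comparison that called 4.77% of 12577 genes. The fall of Nr1h4 was no longer called without chow library 2 (-0.96, p 0.0909), without cholic acid library 1 (-0.97, p 0.0981) or without cholic acid library 3 (-0.89, p 0.0889), as edgeR adjusted p-values. The rise of Nr0b2 was called in each of these 6 fits (1.65 to 2.18). Of all genes, 2.38% had a larger absolute change than Nr0b2 and 8.84% a larger one than Nr1h4.

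Few markers of other cells were called here, in a comparison with few calls in all. Of 5 stellate markers 1 was raised, of 6 hepatocyte markers 1 was lowered, and none of the tested cholangiocyte (4), Kupffer (6), endothelial (5) or leukocyte (3) markers was called. The median log2 fold change was 0.87 for Kupffer, 0.54 for endothelial and 0.53 for cholangiocyte markers. Kupffer markers summed to 72.9 to 235.7 CPM on chow and 181.7 to 306.3 CPM on cholic acid, and hepatocyte markers to 102400 to 121300 CPM and 98440 to 124500 CPM, each with overlap. The part of these markers in the members' values was not tested.

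Of the pathway list, 44 genes were tested on cholic acid; 7 rose and 4 fell, beside 2.27% and 2.50% of all genes, with a median of 0.04 against 0.01 for all genes. With the replicate number as a block, 3 rose and 4 fell. Leaving out a library gave 8 raised without chow library 3, 2 without cholic acid library 1 and 1 in each of the other 4 fits, with 3 to 5 lowered. Of the 14 induced targets tested, 4 rose and none fell. Slc51b had 0, 0 and 7 reads on chow and 60, 154 and 117 on cholic acid (log2 fold change 5.01 ± 0.90, edgeR adjusted p 0.0202). Its call was lost without chow library 1 or 2 or cholic acid library 2 or 3 (edgeR adjusted p 0.0551 to 0.0707), and the value was 9.62 without chow library 3. Abcb11 went from 461.2 ± 120.8 to 936.1 ± 49.97 CPM (n = 3; 1.01 ± 0.22, edgeR adjusted p 0.0418), and Abcc2, a canalicular export pump for conjugates, rose by 0.84 (p 0.0262). Mafg, a transcriptional repressor that FXR induces, rose by 0.83 (edgeR adjusted p 0.0481).

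Most of these calls were lost when a library was left out. Abcb11, Abcc2, Mafg and the xenobiotic sensor Nr1i2 (PXR; 0.68, edgeR adjusted p 0.0443) were called in only 1 of the 6 fits that left out a library, the fit without chow library 3, and in none of them was the direction reversed. With the replicate block their adjusted p-values were 0.0504 (Abcb11), 0.071 (Abcc2), 0.0663 (Mafg) and 0.0852 (Nr1i2). Ppargc1a, a coactivator, rose by 1.08 (edgeR adjusted p 0.0164) and kept its call with the block (0.0417) but in only 1 of the 6 fits.

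The synthesis genes gave the largest changes. Cyp8b1, the sterol 12-alpha-hydroxylase, had 8966, 10585 and 16720 reads on chow and 42, 30 and 35 on cholic acid (log2 fold change -8.90 ± 0.36, edgeR adjusted p 6.25e-05). Cyp7a1 had 1508, 2351 and 9999 reads on chow and 25, 17 and 15 on cholic acid (-8.42 ± 0.89, edgeR adjusted p 0.00316). Cyp7b1 fell by 2.89 (edgeR adjusted p 0.00353), whereas Cyp27a1, the mitochondrial sterol 27-hydroxylase, had a log2 fold change of -0.06 ± 0.21 (edgeR adjusted p 0.899).

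The carriers Slco1a1 and Slco1a4 moved apart here too. Slco1a4 rose by 2.65 (edgeR adjusted p 0.00877). Slco1a1 had a log2 fold change of -3.33 (edgeR adjusted p 0.026), and its call was lost in 3 of the 6 fits that left out a library (highest p 0.104). Rxra (0.28 ± 0.19, edgeR adjusted p 0.423) and Nr1h5 (0.14 ± 0.35, p 0.841) were not called, nor were the SHP partners Hnf4a (0.21 ± 0.20, p 0.572) and Nr5a2 (0.19 ± 0.17, p 0.527).

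**Figure D2:**
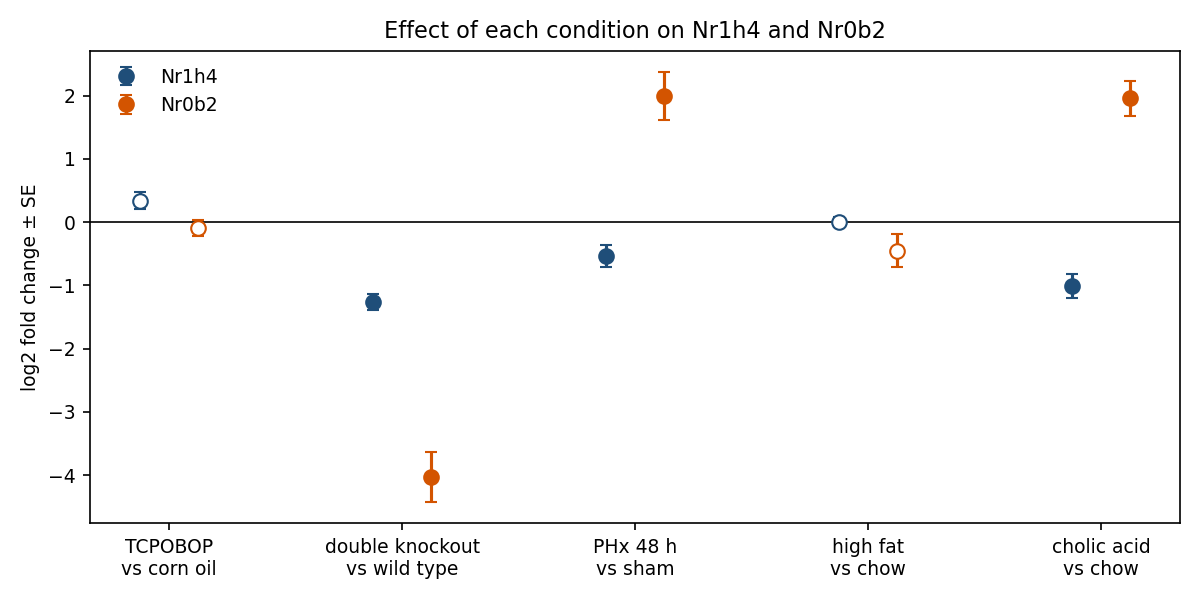
Log2 fold change of Nr1h4 (blue) and Nr0b2 (orange) in each experiment against its own control, from edgeR; bars are ± 1 SE, filled points are called at an adjusted p under 0.05 and open points are not. Nr0b2 lies at 1.99 and 1.96 after PHx and on cholic acid, where Nr1h4 lies at -0.54 and -1.01.

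Against sham liver at 0 hours, the members also moved apart at 48 hours after partial hepatectomy. With no sham group at 48 hours, removal of liver cannot be told apart from time after surgery. Nr0b2 had 4.88, 4.03 and 8.78 CPM in the sham libraries and 13.1, 26.2 and 31.2 CPM after PHx, so that every PHx library lay above every sham library. Nr1h4 had 80.7, 120.2 and 135.3 CPM in sham and 74.9, 78.4 and 79.4 CPM after PHx. The PHx values were close together, and sham library 1 lay just above them.

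Nr0b2 rose with a log2 fold change of 1.99 ± 0.38 (edgeR adjusted p 0.00563), and Nr1h4 had a log2 fold change of -0.54 ± 0.17 (edgeR adjusted p 0.0472), where 30.7% of 13753 genes were called. The Nr1h4 call rested on the set of libraries. It was lost when sham library 2 (-0.49, edgeR adjusted p 0.146), sham library 3 (-0.38, p 0.165), PHx library 1 (-0.51, p 0.0989), PHx library 2 (-0.55, p 0.0979) or PHx library 3 (-0.55, p 0.063) was left out, and without sham library 1 it became -0.73 (p 0.00191). Nr0b2 was called in each of these 6 fits, at 1.74 to 2.396. Summed hepatocyte markers ranged from 97290 to 107700 CPM after PHx and from 131800 to 134000 CPM in sham. Of these markers 4 of 6 were lowered, where 14.3% of all genes were, and the part of this in the Nr1h4 value was not tested.

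Of 44 pathway genes tested after PHx, 5 rose and 16 fell, beside 16.4% and 14.3% of all genes, with a median of -0.19 against 0.01 for all genes. All 4 uptake carriers fell, led by Slc10a1 (NTCP, the main sodium-dependent bile acid importer), which went from 975.2 ± 49.0 to 424.6 ± 40.8 CPM (n = 3; log2 fold change -1.20 ± 0.10, edgeR adjusted p 8.87e-05). Of these, Slco1a4 (-0.49, edgeR adjusted p 0.0297) kept its call in only 1 of the 6 fits that left out a library. In the fit of all 26 libraries, Slco1a4 (adjusted p 0.169), Slco1a1 (0.191) and Slco1b2 (0.0504) were not called. Cyp8b1 fell by 1.59 and Cyp27a1 by 0.93 (edgeR adjusted p 0.00323 and 0.000881). Cyp7a1 was variable, with 465.6 to 916.8 CPM in sham and a mean of 366.8 ± 231.2 CPM after PHx (-1.02 ± 0.50, edgeR adjusted p 0.157).

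The induced targets were mixed, with 4 of 14 raised and 3 lowered. Slc51b had 23, 11 and 15 reads in sham and 36, 45 and 82 after PHx (1.55 ± 0.41, edgeR adjusted p 0.0227), a call lost without sham library 2, sham library 3 or PHx library 3 (highest p 0.0869) and in the fit of all 26 libraries. The other 3 raised were the fibrinogen chains Fga, Fgb and Fgg, with Fgg at 0.61 ± 0.12 (edgeR adjusted p 0.0082). Fga was not called without sham library 3 (0.55, edgeR adjusted p 0.0504). In the knockout, Fga, Fgb and Fgg had log2 fold changes of 0.09, 0.17 and -0.06 and were not called. None of these chains was called on cholic acid either. Abcb11 was not called (0.24 ± 0.19, edgeR adjusted p 0.372). Pltp fell by 1.05 (edgeR adjusted p 0.00754, and 0.0586 in the fit of all 26 libraries), and the bile acid conjugating enzymes Baat and Slc27a5 fell by 0.41 and 0.63 (p 0.0154 and 0.00443).

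Among partners and coregulators, Rxra fell by 0.47 (edgeR adjusted p 0.00725), and Ppargc1a fell from 62.9 ± 6.68 to 18.9 ± 11.9 CPM (-1.74 ± 0.38, edgeR adjusted p 0.0108). Nr1i2 fell by 0.73 (edgeR adjusted p 0.00363). The FXR-beta gene Nr1h5 was not called (-0.62 ± 0.27, edgeR adjusted p 0.114). Neither SHP partner was called, with -0.18 ± 0.08 for Hnf4a (edgeR adjusted p 0.144) and -0.04 ± 0.11 for Nr5a2 (p 0.835).

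In isolated hepatocytes the high fat diet changed neither member by the test. Nr1h4 had 158.0 and 161.2 CPM on chow and 157.7 and 167.5 CPM on the diet, with interleaved values. Its log2 fold change was -0.0012 ± 0.080 (edgeR adjusted p 0.993). Nr0b2 had 43.9 and 70.1 CPM on chow and 50.7 and 34.4 CPM on the diet, which overlapped (-0.45 ± 0.26, edgeR adjusted p 0.254). The spread between the chow libraries was wider than the difference between the diet means. Without chow library 1, the Nr0b2 value became -0.75, and without chow library 2 it became -0.08, each with 1 chow library left. Of 13892 genes, 24% were called.

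Marker RNA of other liver cells differed between the diets, where 12.9% of all genes were raised and 11.1% lowered. All 5 endothelial, 4 of 5 stellate, 4 of 6 Kupffer and 3 of 3 tested leukocyte markers were raised on the diet. Endothelial markers summed to 38.1 to 40.1 CPM on chow and 95.4 to 98.3 CPM on the diet, and Krt19, Epcam and Cd79a were at 0 in both chow libraries. Summed hepatocyte markers were 106800 to 108500 CPM on chow and 103100 to 105200 CPM on the diet, with 2 of 6 lowered. The part of these markers in the values of the members and pathway genes was not tested.

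Of 44 pathway genes tested in hepatocytes, 3 rose and 7 fell, beside 12.9% and 11.1% of all genes, with a median of -0.23 against 0.01 for all genes. Cyp7b1 went from 1051 ± 388.6 to 84.7 ± 7.34 CPM (n = 2; log2 fold change -3.66 ± 0.27, edgeR adjusted p 0.00208) and Slco1a1 from 865.1 ± 36.0 to 158.1 ± 1.31 CPM (-2.48 ± 0.09, edgeR adjusted p 0.000386). Cyp27a1 fell by 0.95 (edgeR adjusted p 0.0148), Hnf4a by 0.68 (p 0.0233) and the FGF15 coreceptor Klb by 0.69 (p 0.0108). Hnf4a was not called without diet library 1 (-0.50, edgeR adjusted p 0.057), nor Klb in the fit of all 26 libraries (0.181).

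Pltp rose by 1.00 (edgeR adjusted p 0.00796, and 0.199 in the fit of all 26 libraries), and Rxrg, a minor RXR form in liver, by 0.95 (p 0.0234; 0.0987 without diet library 1). Nr1h5 went from 2 and 2 reads to 20 and 23, and its call (3.06 ± 0.53, edgeR adjusted p 0.0155) was lost in each of the 4 fits that left out a library. Rxra (-0.25 ± 0.10, edgeR adjusted p 0.128), Abcb11 (-0.28 ± 0.12, p 0.153) and Cyp8b1 (-0.25 ± 0.15, p 0.249) were not called.

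**Figure D3:**
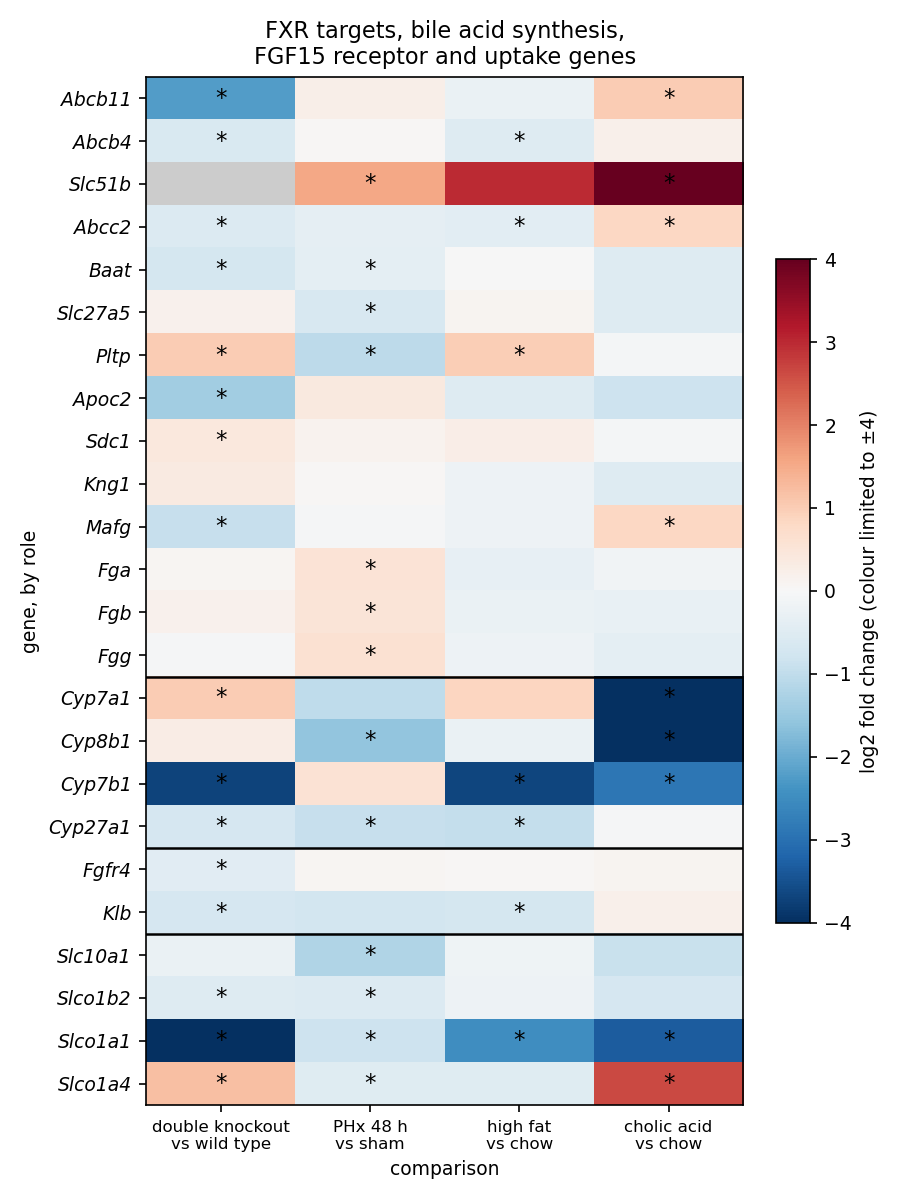
Log2 fold change (colour, limited to ± 4) of FXR-induced targets, synthesis genes, FGF15 receptor genes and uptake carriers, from top to bottom between the black lines, in 4 comparisons. Asterisks mark an edgeR adjusted p under 0.05 and grey a gene not tested. Abcb11 is at -2.23 in the knockout and 1.01 on cholic acid, and Cyp7b1 is called lower in 3 of the 4 columns.

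TCPOBOP gave no called change in either member. Nr1h4 had 88.5 and 85.1 CPM with corn oil, and TCPOBOP gave 104.7 and 116.8 CPM, without overlap (log2 fold change 0.34 ± 0.14, edgeR adjusted p 0.841). Nr0b2 had 35.4 and 35.1 CPM with corn oil and 31.9 and 34.5 CPM with TCPOBOP (-0.10 ± 0.13, edgeR adjusted p 0.97). The share of genes called was 0% of 12785 by edgeR, which had 751 genes at an unadjusted p under 0.05, while DESeq2 called 91. Without the library labelled corn oil 1, which leaves 1 control library, the values were 0.36 for Nr1h4 and -0.10 for Nr0b2.

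None of 43 pathway genes tested with TCPOBOP was called, with a median of 0.06 against -0.02 for all genes. Fits without a corn oil library leave 1 control library, so their calls are not given. Rxra had 0.37 ± 0.22 (edgeR adjusted p 0.912) and Nr1h5 0.07 ± 0.33 (p 0.99). Cyp7a1 was at 2.02 ± 0.70 (edgeR adjusted p 0.835), with 1995 and 1464 reads with corn oil and 2607 and 10276 with TCPOBOP.

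The effects on the members were compared between 3 experiments that share no libraries. Nr0b2 responded to PHx and to cholic acid with a log2 difference of 0.04 ± 0.49 (edgeR adjusted p 0.972), and Nr1h4 with 0.48 ± 0.26 (p 0.258), where 13% of genes differed. The high fat effect minus the cholic acid effect was -2.39 ± 0.44 for Nr0b2 (edgeR adjusted p 0.0165) and 1.03 ± 0.24 for Nr1h4 (p 0.0371), where 6.43% of genes differed, or 858 genes. That count became 76 to 185 without any 1 of the hepatocyte libraries, 525 to 551 without floxed chow library 2 or cholic acid library 1 or 3, and 1958 without floxed chow library 3. Both calls were lost with a replicate block (0.0544 and 0.0611). The Nr1h4 call was also lost without any 1 of the 4 hepatocyte libraries, floxed chow library 2, or cholic acid library 1 or 3 (0.89 to 1.07, edgeR adjusted p 0.0636 to 0.161). The Nr0b2 call was lost without hepatocyte chow library 2 or either high fat library (-2.70 to -2.11, edgeR adjusted p 0.0551 to 0.0903). The PHx effect minus the high fat effect was 2.43 ± 0.56 for Nr0b2 (edgeR adjusted p 0.00944) and -0.55 ± 0.23 for Nr1h4 (p 0.104, and -0.74 with p 0.00281 without sham library 1), where 29.2% of genes differed. These experiments differ in strain, feeding and tissue as well as in treatment, and the PHx effect includes the 48 hours between its groups.

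The ratio of Nr0b2 to Nr1h4 within a library does not depend on library scaling. Per exonic base, Nr0b2 stood above Nr1h4 only in the cholic acid group, at 2.87, 1.07 and 2.22 in its 3 libraries. In each of the other 23 libraries the ratio was below 1, with a maximum of 0.885 in a chow hepatocyte library. The floxed mice on chow were close together at 0.245, 0.241 and 0.265.

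As reads of Nr0b2 per 100 reads of Nr1h4, the sham libraries had 6.04, 3.35 and 6.49 and the PHx libraries 17.5, 33.5 and 39.3. Wild type had 9.84, 17.5 and 11.6 and the knockout 0.915, 2.09 and 2.88. Corn oil had 40.0 and 41.3 and TCPOBOP 30.5 and 29.5. The hepatocytes had 27.8 and 43.5 on chow and 32.1 and 20.5 on the high fat diet, which overlapped. How often other pairs of genes separate between these groups was not tested. The corn oil values include the library that went against its label.

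The log2 ratio rose by 2.92 with cholic acid and by 2.48 after PHx, and was lower by -2.78 in the knockout, each with p 0.1 in a 2-sided exact permutation test over libraries, the smallest p that 3 against 3 allows (adjusted over the 5 comparisons, 0.167). With TCPOBOP it changed by -0.44 (exact permutation p 0.33, the smallest that 2 against 2 allows; adjusted 0.416) and with the high fat diet by -0.44 (exact p 0.667; adjusted 0.667). The design thus cannot reach 0.05 for this measure. In the knockout libraries the ratio is between residual reads of the genes that are knocked out.

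**Figure D4:**
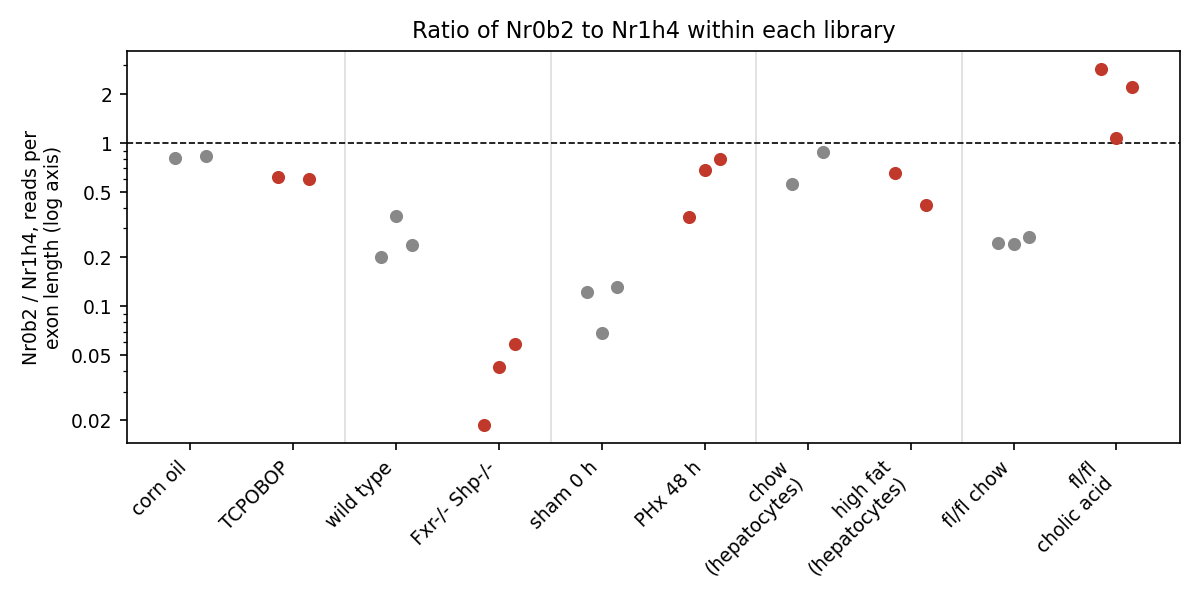
Ratio of Nr0b2 to Nr1h4 in each library, as reads per exonic base on a log axis; the dashed line marks a ratio of 1, grey the control and red the treated group. The 3 cholic acid libraries, at 1.07 to 2.87, are above the line and the other 23 are below it.

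Over the 23 libraries outside the knockout, with the mean of each experiment subtracted from log2 CPM, the members ran against each other (Pearson r = -0.656). Differences between the groups of an experiment stay in this measure, so r includes the opposite moves with cholic acid and after PHx. Without centring, over all 26 libraries, r was 0.396. Among 10049 genes compared, those most like Nr1h4 in the centred measure included Cyp2e1 (0.867), Urad (0.863), Fdx1 (0.852) and Asic5 (0.85). Those most like Nr0b2 were Icam1 (0.863), Frrs1 (0.859), Rab11fip4 (0.857), Rtkn (0.857) and Phlpp2 (0.855).

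Among the uncentred profiles of 10085 genes, the list for Nr1h4 was led by Sec62 (0.865), Slc25a21 (0.848), Ecsit (0.848), Rmc1 (0.835) and Pcmtd1 (0.83). That for Nr0b2 was led by Rps3a1 (0.873), Tdg (0.871), Slc35e3 (0.865), Abcb11 (0.86) and Tmem260 (0.859). The knockout libraries, where both members fell, are part of this measure. All these genes had lower means in the knockout than in wild type, from Sec62 (117.8 against 160.9 CPM) to Rps3a1 (0.482 against 96.5 CPM). None of the 5 genes nearest to a member was shared between the centred and the uncentred measure. Genes share libraries and depth, so these values are descriptions. Abcb11 is a pathway gene, Cyp2e1 is one of the hepatocyte markers, and Rps3a1 has near-identical copies that make it uncertain as a single gene.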

How the data were processed

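The authors deposited read counts per gene for all 26 libraries in a single table of 47643 genes and 5 summary lines, which were left out. Per the submitters' processing notes, reads were handled with Trimmomatic, STAR 2.4.2a, Picard 1.119 and HTSeq against GRCm38 (mm10), and per the labels' protocols the kit was strand-specific. Whether counting used strand is not given in the sources used here. Columns were matched to samples by title. Each experiment was fitted alone on the raw counts with edgeR 4.0.16 (R 4.3.3): filterByExpr, TMM, quasi-likelihood F test, Benjamini-Hochberg adjustment over all genes tested, called at an adjusted p under 0.05. SE is the absolute log2 fold change over the square root of F. CPM were scaled by TMM over all libraries. The limit that a count of 0 allows was taken as 3 counts.

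The members and gene lists (46 pathway genes and 32 cell markers) were chosen with earlier results of these data known. Named are both members, the called list genes with at least the 6 largest changes per comparison, Nr1h5, Nr0b1 and Rxra, and the 5 genes most like each member, by Pearson r of log2 CPM, of which 1 is not reported here. Some list genes that were not called (Abcb11, Cyp7a1, Cyp8b1, Cyp27a1, Hnf4a, Nr5a2) are named outside that rule, chosen after their values were seen. Same-numbered cholic acid libraries deviated together (r 0.133, 0.155 and 0.103), but the labels do not say that they were paired. The main fits used no block. Fits were tested on simulated counts. Alternatives were DESeq2 (1.42.0) size factors and Wald test, no filter, 1 fit of all libraries, a replicate block and leaving out each library. For the pathway list they were added after seeing the data. Leaving out a corn oil, TCPOBOP or hepatocyte library leaves 1 in its group, whose spread cannot be measured. The p-values and calls of those fits are therefore uncertain.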

Additional observations from a re-analysis of the deposited data

Results flagged for a closer look

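The effects on the members differed between experiments in 3 tests of the difference itself, with edgeR's quasi-likelihood test. The high fat effect minus the cholic acid effect was 1.03 for Nr1h4 (adjusted p 0.0371) and -2.39 for Nr0b2 (adjusted p 0.0165). The hepatectomy effect minus the high fat effect was 2.43 for Nr0b2 (adjusted p 0.00944). The first pair of calls was lost with a replicate block (0.0611 and 0.0544). The Nr1h4 call was also lost without floxed chow library 2 or cholic acid library 1 or 3. Leaving out a hepatocyte library left 1 in its group, which is too few to judge either call of that pair. Those fits gave 0.95 to 1.07 for Nr1h4 and -2.70 to -2.11 for Nr0b2. All 3 tests compared isolated hepatocytes with whole liver.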

How the results depend on the processing

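The calls of both members in the knockout, and of Nr0b2 after hepatectomy and on cholic acid, kept their direction and their side of the threshold under every alternative run. Nr1h4 was called in the hepatectomy and cholic acid comparisons under all alternatives that kept every library, and lost its call in some fits that left one out (-0.73 to -0.38 and -1.17 to -0.89). Nr1h4 on the high fat diet lay at 0.0269 in 1 fit of all libraries, of opposite sign, and ranged from -0.0523 to 0.043 when a library was left out; Nr0b2 ranged from -0.756 to -0.0834 there, and the cause was not tested. Leaving out a library gave differences between hepatectomy and cholic acid of -0.22 to 0.44 for Nr0b2, between high fat and cholic acid of 0.89 to 1.10 for Nr1h4 and -2.71 to -2.07 for Nr0b2, and between hepatectomy and high fat of -0.74 to -0.40 for Nr1h4.

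With the replicate block, the high fat minus cholic acid differences were 1.04 (adjusted p 0.0611) for Nr1h4 and -2.32 (adjusted p 0.0544) for Nr0b2, no longer called; the block changed no other call of a member. In the ratio it left the values as they were, with a smallest exact p of 0.25 for 3 pairs. Same-numbered libraries had correlations of deviations of -0.18 to 0.07 in the knockout and hepatectomy experiments, 0.104 with TCPOBOP and 0.094 with high fat. In the cholic acid, TCPOBOP and high fat experiments every library correlated best with its own number. With 2 libraries per group this follows from any positive correlation.

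The count of genes called changed most with cholic acid, from 600 to 1445 with DESeq2's Wald test, 955 with no filter and 3132 in 1 fit of all libraries. With TCPOBOP, 0 became 91 with the Wald test and 9 in the fit of all libraries, and with high fat 3333 became 1735 in the latter. Leaving out a library gave 0 to 1233 called with TCPOBOP, 3969 to 6024 in the knockout, 2554 to 4217 after hepatectomy, 1141 to 2644 with high fat and 189 to 1345 with cholic acid. Between high fat and cholic acid, 858 genes became 1942 with the Wald test, 2435 in the fit of all libraries and 446 with the block; that fit gave 2749 in place of 1820 between hepatectomy and cholic acid, and 2666 in place of 4248 between hepatectomy and high fat. For the pathway list the fit of all libraries gave 1 raised in the knockout, 4 lowered with high fat and 10 lowered with cholic acid, and the Wald test 7 lowered with cholic acid. Depth limits Slc51b, Nr1h5 and Apoc2, which rest on few reads.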
